A study of Rattus norvegicus with 49 samples.

Results

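The genes described here are 9 activity-regulated early genes: *Fos*, *Junb*, *Egr1*, *Egr2*, *Nr4a1*, *Nr4a2*, *Nr4a3*, *Arc* and *Gadd45g*. They were taken by gene symbol from the platform annotation, as a set chosen with earlier results of these data known. They were represented by 13 of the 15923 probe sets on the array and by 9 of the 10411 genes with a probe set of a single symbol. RNA came from left hippocampal CA1 of 49 Fisher 344 rats and was hybridised to 1 Affymetrix RAE 230A array per animal. There were 9 animals each at 3, 6, 9 and 12 months of age and 13 at 23 months. All animals, the youngest included, had been trained in the Morris water maze and were killed within a day of their last session, so there was no untrained group and age is the only difference between the groups that the labels give. The design text gives the oldest age as 25 months in one place, and the 23 months of the sample labels is used here. That text also states that 2 aged animals were withdrawn for poor health. Strain, brain region and training were the same in all groups, and no sex is given in the sources used here.

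Immediate early genes are transcribed within minutes of a burst of synaptic activity, from regulators already present in the cell, without new protein synthesis. In hippocampal neurons their transcripts are mostly short-lived, and exploration or learning is a standard way to induce them. Calcium entry and kinase signalling act on the factors CREB and SRF, which bind cAMP response elements and CArG boxes in the promoters of many of these genes. *Fos* and *Junb* encode subunits of the transcription factor AP-1, *Egr1* and *Egr2* encode zinc finger transcription factors, and *Nr4a1*, *Nr4a2* and *Nr4a3* encode orphan nuclear receptors. *Arc* encodes a protein of dendrites that promotes the internalisation of AMPA receptors, and *Gadd45g* belongs to a family of stress-inducible growth arrest genes linked to DNA demethylation.

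The bases directly upstream of the transcription start were available from RefSeq (rat assembly GRCr8) for 6 of the 9 genes, namely *Egr1*, *Egr2*, *Junb*, *Nr4a1*, *Nr4a2* and *Gadd45g*. The 250 bases before the start are shown for 3 of them, because they hold the CArG boxes and the largest number of cAMP response half-sites in the set. They lie at chr18:26736828-26737077 on the plus strand for *Egr1*, at chr20:21054442-21054691 on the minus strand for *Egr2* and at chr7:134259888-134260137 on the plus strand for *Nr4a1*. They are written 5′ to 3′ along the gene's own strand, and capitals mark CArG boxes and the half-site TGACG read on either strand (CGTCA on the other).
Egr1: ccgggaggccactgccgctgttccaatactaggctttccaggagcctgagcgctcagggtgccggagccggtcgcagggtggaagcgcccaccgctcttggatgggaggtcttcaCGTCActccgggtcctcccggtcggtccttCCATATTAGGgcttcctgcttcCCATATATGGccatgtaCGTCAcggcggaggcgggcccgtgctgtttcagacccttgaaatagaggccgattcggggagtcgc
Egr2: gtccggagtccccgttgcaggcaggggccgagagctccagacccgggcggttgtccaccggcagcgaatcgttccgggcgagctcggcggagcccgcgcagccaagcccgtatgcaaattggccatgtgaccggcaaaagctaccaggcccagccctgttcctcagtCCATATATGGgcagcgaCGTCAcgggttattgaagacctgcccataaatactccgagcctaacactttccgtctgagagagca
Nr4a1: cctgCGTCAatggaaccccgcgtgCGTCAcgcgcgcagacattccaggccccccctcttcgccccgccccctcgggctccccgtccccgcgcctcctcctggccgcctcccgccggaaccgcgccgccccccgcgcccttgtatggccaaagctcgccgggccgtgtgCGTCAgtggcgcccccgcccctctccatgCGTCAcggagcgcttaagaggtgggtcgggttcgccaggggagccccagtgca
The *Egr1* sequence held 2 CArG boxes, at 105 to 96 and 83 to 74 bases before the start, and the *Egr2* sequence held 1, at 83 to 74 bases. A CArG box occurred in 2 of the 6 sequences and in 1.50% of 27457 rat promoters of the same length. TGACG occurred in 5 of the 6, the exception being *Gadd45g*, and in 19.0% of all promoters. *Nr4a1* held 4 matches of TGACG, at 246, 226, 82 and 53 bases before the start, and *Egr1* and *Egr2* both held one at 66 bases. The full palindrome TGACGTCA, which contains TGACG, was in none of the 6 and in 1.70% of all. The letters GCGNGGGCG, which EGR proteins recognise, were in the *Nr4a1* sequence alone and in 4.53% of all promoters. The NR4A element AAAGGTCA and the AP-1 element TGANTCA were in none of the 6, against 1.11% and 6.36% of all promoters. All motifs were searched on both strands, and a match describes letters in this window only.

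The values are MAS5 signals, linear intensities for which the authors scaled every array to a target of 500. Median signals of the arrays lay between 208 and 224.9, and between 10186 and 10924 probe sets per array had a signal of at least 100. A gene stands for its brightest probe set and entered the test with a signal of 100 or more there on 5 or more arrays. All 9 genes did so, among 8093 in all. *Arc*, *Egr1*, *Junb*, *Nr4a1*, *Nr4a2* and *Nr4a3* reached 100 on all 49 arrays, *Egr2* on 46, *Fos* on 44 and *Gadd45g* on 20. Differences between ages are log2 differences from a single limma fit of the 49 arrays, given with their standard errors. The threshold for a call was 0.05 for the p adjusted by the Benjamini-Hochberg method over the 8093 genes. In dissected tissue, fewer cells of a type and less RNA per cell cannot be told apart.

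**Figure D1:**
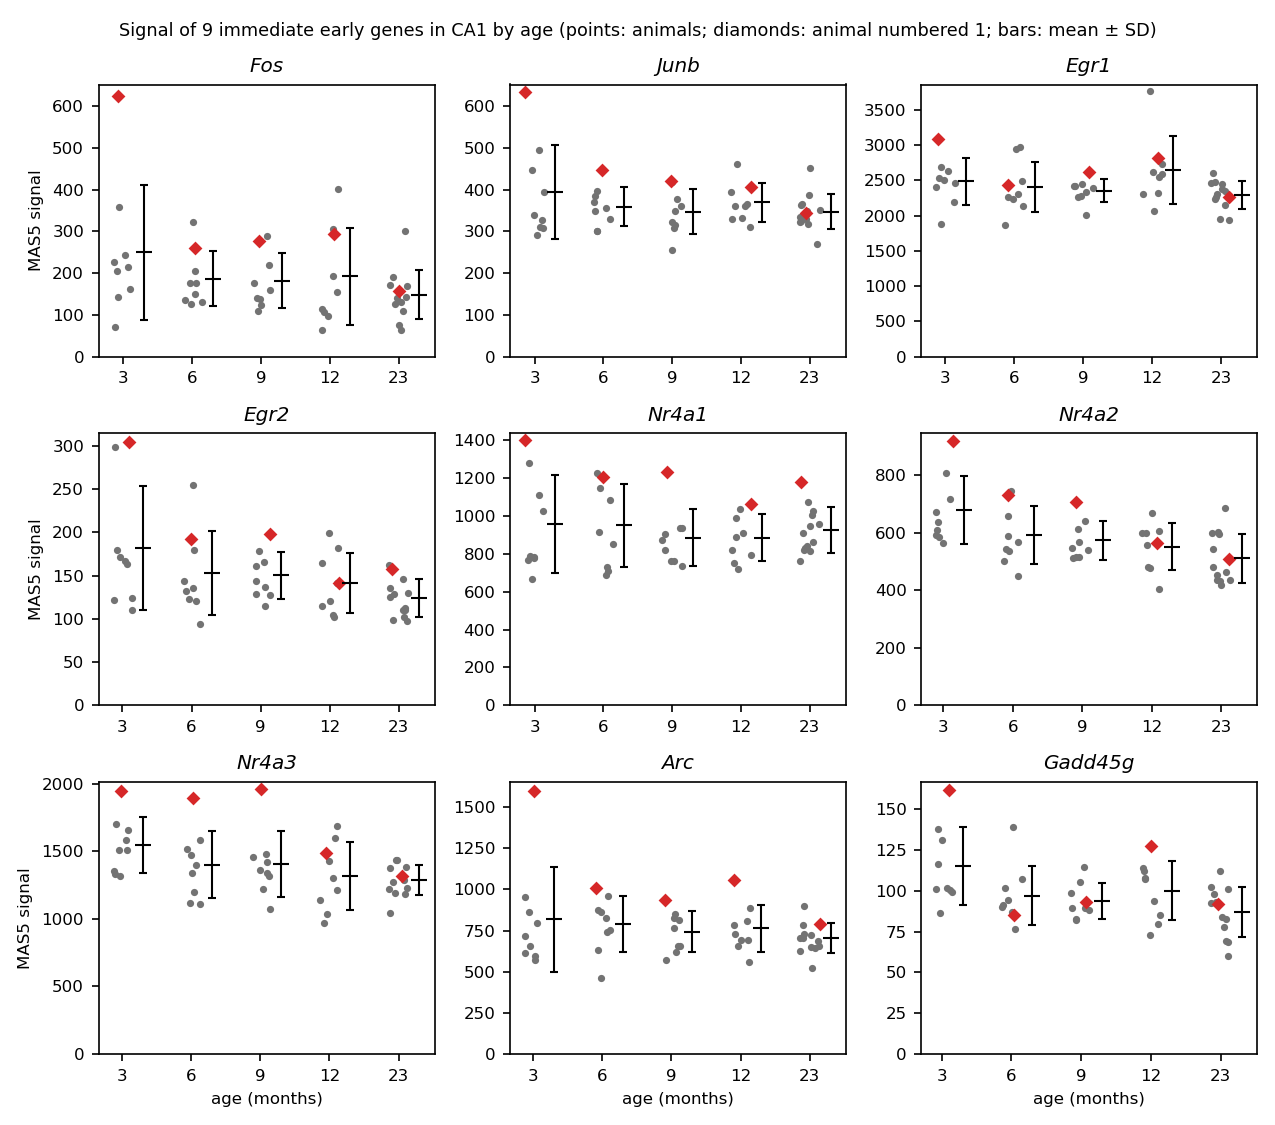
MAS5 signal (linear scale) of the 9 genes in each animal, by age in months; grey points are animals, red diamonds the animal numbered 1 at each age, and the bars beside them the mean and SD. The animal numbered 1 is the highest 3-month animal in all 9 panels, and *Nr4a2* has its lowest mean at 23 months.

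In the oldest animals, 2 of the 9 genes were lower than in the youngest. *Nr4a2* and *Gadd45g* fell at 23 against 3 months, *Nr4a2* to 1.33-fold lower and *Gadd45g* to 1.32-fold lower signals. The *Nr4a2* call held under every setting tried and the *Gadd45g* call did not. No gene of the set rose. Over all genes tested, 3.26% were called at 23 against 3 months, 0.853% lower and 2.41% higher. The log2 difference was below 0 for all 9 genes, with a median of -0.26, against a median of 0.00082 over all genes tested, and 5 of the 9 had an unadjusted p under 0.05, as did 14.4% of all genes tested. The 3-month animals enter every difference in this comparison, so the 9 signs are not independent of each other. Without the 5 arrays numbered 1 in the labels, the difference of *Nr4a1* was above 0, at 0.03.

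Among the AP-1 genes, *Fos* had the widest spread. Its signal in the 23-month animals had a lowest value of 62.8, a median of 143 and a highest value of 302, against 71.8, 214 and 624 in the 3-month animals. The ages overlapped: 12 of 13 aged animals were below the 3-month mean, but 1 alone was below the lowest 3-month animal. The difference of -0.62 ± 0.27 (SE) missed the threshold (adjusted p = 0.250, limma), with a 95% interval of -1.16 to -0.07. *Junb* averaged 347 ± 42.1 in 23-month animals and 394 ± 113 in 3-month animals (SD, n = 13 and 9). Its difference of -0.14 ± 0.098 also missed the threshold (adjusted p = 0.542), with an interval of -0.34 to 0.05.

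Of the EGR genes, *Egr2* came close to the threshold and *Egr1* did not. *Egr2* signals in the 23-month animals had a lowest value of 97.3, a median of 125 and a highest value of 163, against 110.4, 167 and 304 in the 3-month animals. All 13 aged animals lay below the 3-month mean and 4 lay below the lowest 3-month animal, while 6 of 9 young animals lay above the highest aged one. The difference was -0.49 ± 0.15, with an adjusted p of 0.0646 and an interval of -0.79 to -0.18. It passed the threshold under quantile normalization (adjusted p = 0.0314) and under median centring (0.0477), and also when any of 5 single arrays was left out, namely 3 months replicates 3, 4 and 9, 6 months replicate 2 and 23 months replicate 14, with a lowest adjusted p of 0.0242. Without 3 months replicate 1 the adjusted p was 0.201. *Egr1*, a gene required for lasting potentiation in mice, averaged 2294 ± 196 in 23-month animals and 2485 ± 332 in 3-month animals. Its difference of -0.11 ± 0.075 was not called (adjusted p = 0.551, interval -0.26 to 0.04).

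The 3 nuclear receptor genes, which bind DNA without a known activating hormone, did not give the same result. *Nr4a2*, known for its role in dopamine neurons and in hippocampal memory in mice, had a lowest signal of 419, a median of 479.8 and a highest signal of 687 in the 23-month animals, against 564, 638 and 921 in the 3-month animals. Of the 13 aged animals, 12 were below the 3-month mean and 9 were below the lowest 3-month animal. The ages still overlapped, because the highest aged animal exceeded the 3-month mean. The difference was -0.41 ± 0.092 (adjusted p = 0.00381, limma), with an interval of -0.59 to -0.22. It was called whichever single array was left out (adjusted p 0.00107 to 0.0189) and under every other setting tried (0.00193 to 0.0231). A second *Nr4a2* probe set, fitted with all 9541 probe sets above the filter, differed by -0.35 ± 0.15 and was not called (adjusted p = 0.249).

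*Nr4a3* signals had a lowest value of 1046, a median of 1288 and a highest value of 1437 at 23 months, against 1321, 1508 and 1948 at 3 months. All 13 aged animals were below the 3-month mean and 9 were below the lowest 3-month animal. The difference of -0.26 ± 0.089 was not called (adjusted p = 0.0968, interval -0.44 to -0.08), although a fit of these 2 ages alone called it (0.0193). The second *Nr4a3* probe set gave a difference of the opposite sign, 0.10 ± 0.24 (adjusted p = 0.907), so the 2 probe sets did not give 1 direction. *Nr4a1* averaged 924 ± 120.4 at 23 months and 955 ± 259 at 3 months. Its difference of -0.01 ± 0.11 had an interval of -0.23 to 0.21 (adjusted p = 0.982), and its sign turned under several settings.

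*Arc*, whose transcript is carried into dendrites, was not called. Its signals had a lowest value of 524, a median of 706 and a highest value of 898 in the 23-month animals, against 574, 718 and 1596 in the 3-month animals. The medians lay close together, and the 3-month mean was pulled up by replicate 1 at 1596. The difference was -0.16 ± 0.12 (adjusted p = 0.616, interval -0.41 to 0.09), and it was -0.03 without that animal.

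*Gadd45g* was called, but at low signals and on narrower grounds than *Nr4a2*. In the 23-month animals its signal had a lowest value of 60.0, a median of 91.8 and a highest value of 112, against 86.2, 102 and 162 in the 3-month animals. All 13 aged animals were below the 3-month mean and 6 were below the lowest 3-month animal. The difference was -0.40 ± 0.12 (adjusted p = 0.0407, interval -0.63 to -0.16). Leaving out any of 10 arrays ended the call: 3 months replicates 1, 5, 6 and 8 and 23 months replicates 4, 5, 6, 7, 13 and 14, with a highest adjusted p of 0.128 without 3 months replicate 1. It was also not called without the 5 arrays with a signal of transthyretin, a choroid plexus transcript, above 2000 (adjusted p = 0.0773), without the 5 arrays numbered 1 in the labels (0.130) or in a fit of the 2 ages alone (0.105). Signal near the limit of 100 moves with this result, and its part in it was not tested.

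The second probe sets of *Egr2* and *Fos* were too dim to test. That of *Egr2* never exceeded 72.3, and that of *Fos* had a median of 13.5 and was at or under the floor of 16 on 31 of 49 arrays.

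**Figure D2:**
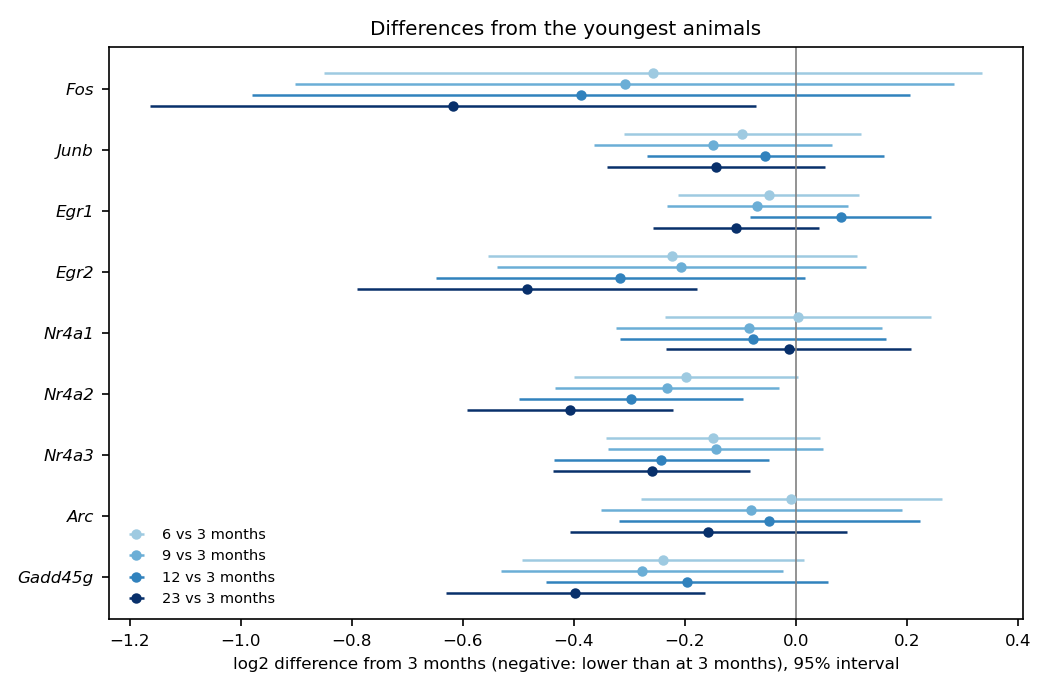
Log2 difference from the 3-month animals for each gene at 6, 9, 12 and 23 months (points) with 95% intervals (lines); values below 0 are lower than at 3 months. At 23 months the intervals of *Fos*, *Egr2*, *Nr4a2*, *Nr4a3* and *Gadd45g* lie below 0, and of these *Nr4a2* and *Gadd45g* passed after adjustment.

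Across the 5 ages, none of the 9 genes was called by limma's F-test, against 1.88% of all genes tested. The unadjusted p was under 0.05 for 3 of them, *Nr4a2* (0.00151), *Gadd45g* (0.0257) and *Egr2* (0.0408), and for 9.24% of all genes tested. The smallest adjusted p was 0.0704 for *Nr4a2*. The study's own one-way test across age, which takes each gene's variance alone, gave an unadjusted p of 0.05 or less for 2 of the 9 (*Nr4a2* and *Gadd45g*) and for 757 of the 8093 genes, and after adjustment for none of the 9. *Nr4a2* signals averaged 679 ± 118 at 3 months, 592 ± 101 at 6 months, 574 ± 67.6 at 9 months, 551 ± 81.8 at 12 months and 512 ± 85.1 at 23 months. The means of this probe set descended at each step, and no step between neighbouring ages was called. The second *Nr4a2* probe set averaged 232, 241, 219, 220 and 182 at the same ages and did not descend at each step. *Egr2* averaged 182 ± 71.7, 153 ± 48.6, 151 ± 27.2, 141 ± 34.6 and 124 ± 21.6 at the same ages, and *Fos* 249.9 ± 161, 187 ± 66.2, 182 ± 66, 192 ± 116 and 149 ± 58.8. *Gadd45g* averaged 115 ± 24, 97.1 ± 18.1, 93.8 ± 10.8, 100.1 ± 18 and 87.1 ± 15.2. In this gene the 12-month mean stood above those at 6 and 9 months.

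The remaining genes were flatter. *Nr4a3* averaged 1546 ± 206 at 3 months, 1402 ± 250.3 at 6, 1405 ± 244 at 9, 1318 ± 249 at 12 and 1286 ± 111 at 23. *Arc* averaged 819 ± 319, 792 ± 169, 744 ± 123, 764 ± 144 and 703 ± 91.6, and *Junb* 394 ± 113, 359 ± 46.9, 348 ± 53.7, 369 ± 46 and 347 ± 42.1. *Egr1* had its highest mean at 12 months, at 2641 ± 482, with 2405 ± 359 at 6 and 2354 ± 169 at 9 months. That 12-month mean includes replicate 5 at 3763, with the next animal at 2821. *Nr4a1* averaged 950.3 ± 218 at 6 months, 883 ± 151 at 9 and 885 ± 124 at 12, and had its highest mean log2 signal at 6 months.

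By mean log2 signal, 7 of the 9 genes were highest at 3 months, 7 were lowest at 23 months and 6 were both. Over all genes tested, 21.2% were highest at 3 months, 24.0% lowest at 23 months and 7.97% both. Without the 5 arrays numbered 1, the mean of *Arc* was lower at 3 months than at 6, 9 and 12 months. That of *Junb* was then lower at 3 than at 12 months, so the 7 highest at 3 months depend in part on these arrays. With each gene's ages put in order of its mean, none of the 36 differences between neighbours in the order had an adjusted or an unadjusted p under 0.05 in limma (0 of 36 in both). Among all genes tested, calls between those pairs of ages numbered 1.45% at 23 against 6 months, 0.816% at 23 against 9 months, the shares given below against 3 months and at 23 against 12 months, and at most 0.0124% between 6, 9 and 12 months. So the order of adjacent ages is not resolved.

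At the intermediate ages no gene of the set was called against 3 months. At 12 months, where 0.222% of all genes were called, 8 of 9 differences were below 0 and 2 had an unadjusted p under 0.05, against 7.92% of all genes: *Nr4a2* at -0.30 ± 0.10 (adjusted p = 0.330) and *Nr4a3* at -0.24 ± 0.096 (0.483). At 9 months, where 0.0371% of all genes were called, all 9 were below 0 and 2 had an unadjusted p under 0.05, against 3.09% of all genes. These were *Nr4a2* at -0.23 and *Gadd45g* at -0.28. The second *Nr4a2* probe set differed by -0.06 at 12 months and by -0.10 at 9 months. That of *Nr4a3* differed by 0.25 at 12 months, the opposite sign, and neither was called. At 6 months, where 0.0124% were called, 8 were below 0 and none had an unadjusted p under 0.05, against 2.85% of all genes. At 23 against 12 months, where 0.358% of all genes were called, none of the 9 was called and 8 differences were below 0. The only unadjusted p under 0.05 there was that of *Egr1*, at -0.19 ± 0.075 (p = 0.0144, adjusted p = 0.439), against 8.22% of all genes with such a p. Its 12-month signals include replicate 5 at 3763, far above the next animal at 2821. At 6, 9 and 12 months the comparisons share the 3-month animals, so their signs do not support one another. Without the 5 arrays numbered 1, the differences of *Arc* at these ages were above 0 (0.07, 0.0058 and 0.02). That of *Junb* at 12 months was then 0.02.

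Genes around the members were followed in 4 lists at 23 against 3 months. Over all genes tested, 3.26% were called in this comparison, 0.853% lower and 2.41% higher. Of the 73 list genes tested, 13 had an unadjusted p under 0.05 in limma, against 14.4% of all genes tested. Of 24 other immediate early transcription regulators, 18 were tested, and 1 fell and none rose, with a median difference of -0.06. The one that fell was *Ier5*, an early-response gene of growth factor and heat stress, with signals of 809 ± 143 at 23 months and 989 ± 163 at 3 months, a difference of -0.29 ± 0.083 (adjusted p = 0.0337). Leaving out any of 11 arrays ended its call, with a highest adjusted p of 0.102 without 3 months replicate 7, and it ended without the 5 arrays numbered 1 (0.0995). Of 29 activity-induced effectors, 23 were tested, with a median of -0.06. *Zfp36*, which encodes an RNA-binding protein that speeds the decay of AU-rich transcripts, rose (144 ± 20.7 at 23 months and 113 ± 19.3 at 3 months, a difference of 0.36 ± 0.10, adjusted p = 0.0340). Any of 9 arrays ended that call, up to 0.105 without 3 months replicate 7, and it was not called without the 5 arrays of high transthyretin (0.224).

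*Homer1*, which encodes a scaffold of glutamate receptors with a short activity-induced form, fell by 0.18 ± 0.054 on the log2 scale (adjusted p = 0.0431). Any of 13 arrays ended that call, up to 0.125 without 3 months replicate 2, and it was not called without the 5 arrays of high transthyretin (0.110) or the 5 numbered 1 (0.0934), while 2 of its 4 other probe sets above the filter were called lower (-0.73 and -0.78). Of 28 genes of signalling to early genes, 21 were tested, with a median of -0.01 and 1 call. *Camk4*, a nuclear kinase that phosphorylates CREB, fell, with signals of 145 ± 36.4 at 23 months and 225 ± 64.2 at 3 months, a difference of -0.63 ± 0.14 (adjusted p = 0.00382). No single array ended that call, but its other probe set differed by -0.13 and was not called (adjusted p = 0.702). Of 13 partners of the members, 11 were tested with a median of -0.06, and none was called. Of the 11, 2 had an unadjusted p under 0.05, against 14.4% of all genes tested. These were *Sh3gl2* (-0.19, adjusted p = 0.0908), an endophilin gene, and of *Sh3gl1* (-0.15, adjusted p = 0.294), also an endophilin gene and known to bind the Arc protein. At 6, 9 and 12 months against 3 months and at 23 against 12 months, none of the 73 tested genes of the 4 lists was called by limma, and 4, 2, 5 and 10 of them had an unadjusted p under 0.05. Over all genes tested that share was 2.85%, 3.09%, 7.92% and 8.22%.

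Animals of one age differed widely in several of these genes. The SD of the log2 signal within ages was 0.68 for *Fos*, above 98.9% of all genes tested, 0.37 for *Egr2* (92.7%) and 0.31 for *Arc* (86.5%). It was 0.18 for *Egr1*, close to the median gene. Among the 500 genes of nearest signal level, the spread ranked at the percentile 99.8 for *Fos*, 98 for *Arc* and 97.8 for *Nr4a1*, but at 11.8 for *Gadd45g*. The SD was smaller at 23 months than at 3 months for all 9 genes, whereas it was larger at 3 than at 23 months for 42.4% of all genes tested. The median SD of the 9 was 0.19 at 23 months and 0.38 at 3 months, against 0.18 and 0.17 over all genes. Without 3 months replicate 1 the SD was larger at 3 months for 7 of the 9, against 41.6% of all genes, and the 3-month SD of *Arc* was 0.27 in place of 0.46. The difference in spread was not tested.

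The genes also varied together. After subtraction of each age's mean, the Pearson correlation over the 49 animals was above 0 for all 36 pairs, with a median of 0.49, and 29 pairs passed a two-sided permutation test that shuffled animals within ages (100000 resamples, adjusted over 36 pairs). With Spearman's rho 27 of them passed. The same count was not made for pairs of genes outside the set, so 29 of 36 has no background beside it. The shuffle takes no account of the animals' numbers in the labels. All 28 pairs without *Gadd45g* passed by Pearson's r, some narrowly. *Egr1* and *Nr4a3* had an adjusted permutation p of 0.0492, and *Arc* and *Nr4a2* (r = 0.34) did not pass by rho (0.24, adjusted permutation p = 0.1215). They missed the threshold without the 5 arrays of high transthyretin (0.119 and 0.0751) and without the 5 numbered 1 (0.279 and 0.619). Of the 8 pairs with *Gadd45g* 1 passed by r, that of *Gadd45g* and *Fos* (r = 0.36, adjusted p = 0.0264). That pair did not pass by rho (0.31, adjusted permutation p = 0.0594), and its r was 0.22 without the 2 animals farthest from the median of *Fos*. It also missed the threshold without the 5 arrays of high transthyretin (0.0923) and without the 5 numbered 1 (0.162).

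The closest pair was *Arc* and *Nr4a1*, an effector of the synapse and a nuclear receptor, with r = 0.81 and rho = 0.81 (adjusted permutation p = 9e-05 and 0.00036, from a raw p of 1e-05, the smallest the resamples can give). It was 0.77 without the 2 animals farthest from the median of *Arc*. The correlation was 0.88 at 3 months, 0.77 at 6, 0.73 at 9, 0.83 at 12 and 0.73 at 23. The next pairs were *Egr2* and *Fos* (r = 0.65, rho = 0.61), *Fos* and *Nr4a3* (0.64 and 0.64) and *Egr1* and *Egr2* (0.63 and 0.58), each with an adjusted permutation p of 0.000432 or less for both measures and with r between 0.57 and 0.62 without the 2 animals farthest from the median of the first gene. These 3 pairs were close at 3 months, at 0.93, 0.80 and 0.67, and low at 23 months, at 0.15, 0.17 and 0.14. Without replicate 1 the 3-month values were 0.89, 0.63 and 0.48. Not all pairs were low at 23 months: *Egr1* and *Nr4a2* had 0.67 there and 0.55 at 3 months, and *Fos* and *Nr4a2* had 0.65 and 0.77. *Nr4a2* and *Gadd45g*, the 2 genes that fell, had r = 0.0047 and rho = -0.0088 across animals (adjusted permutation p = 0.976 and 0.956).

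**Figure D3:**
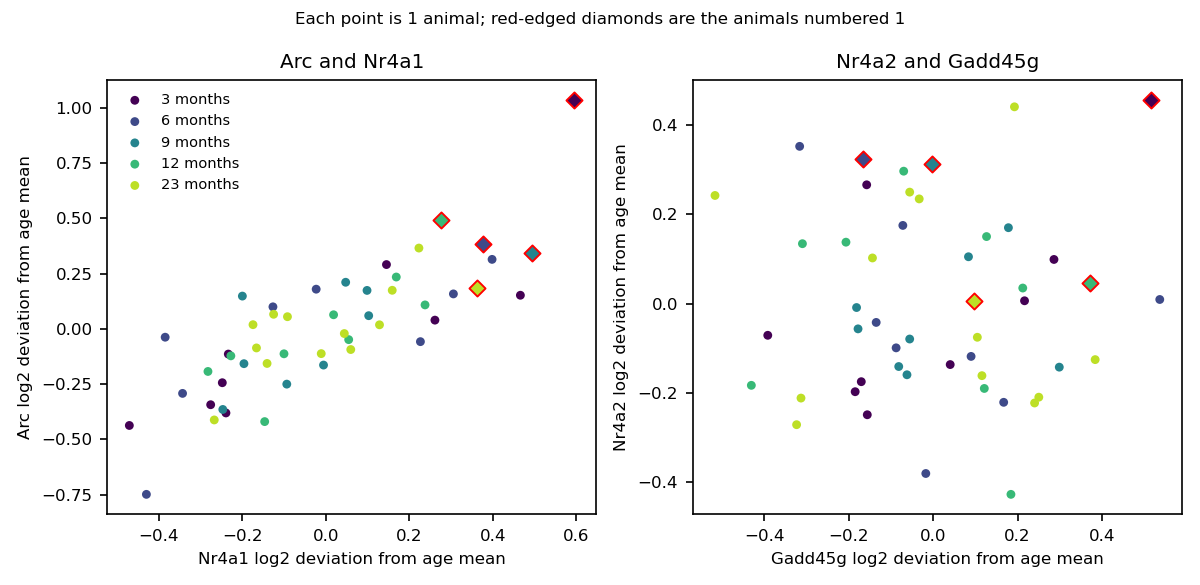
Log2 deviation from the age mean in each animal, for *Arc* against *Nr4a1* (left) and *Nr4a2* against *Gadd45g* (right); colours are ages and red-edged diamonds the animals numbered 1. The left points follow a line (r = 0.81) and the right ones do not (r = 0.0047).

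The animals numbered 1 were high in these genes and stood apart at 3 and 9 months. The labels number the animals within each age, and what the numbers stand for is not given in the sources used here. The animal numbered 1 at 3 months had the highest signal of its age for all 9 genes, with *Fos* at 624 and *Arc* at 1596. The animal numbered 1 at 9 months was highest for 7, all but *Fos* and *Gadd45g*. In units of each gene's SD, the mean deviation of the 9 genes from their age mean in the animals numbered 1 was 2.31 at 3 months, 1.00 at 6, 1.22 at 9, 0.88 at 12 and 0.41 at 23. Another animal deviated more at 6 months (number 2, 1.05), at 12 months (number 6, 0.94) and at 23 months (number 3, 0.70). Averaged over ages the mean deviation was 1.16 for number 1. For number 9 it was below 0 at every age, between -0.85 and -0.30, with a mean of -0.48. Number 4 averaged -0.66, between -1.38 and 0.30.

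**Figure D4:**
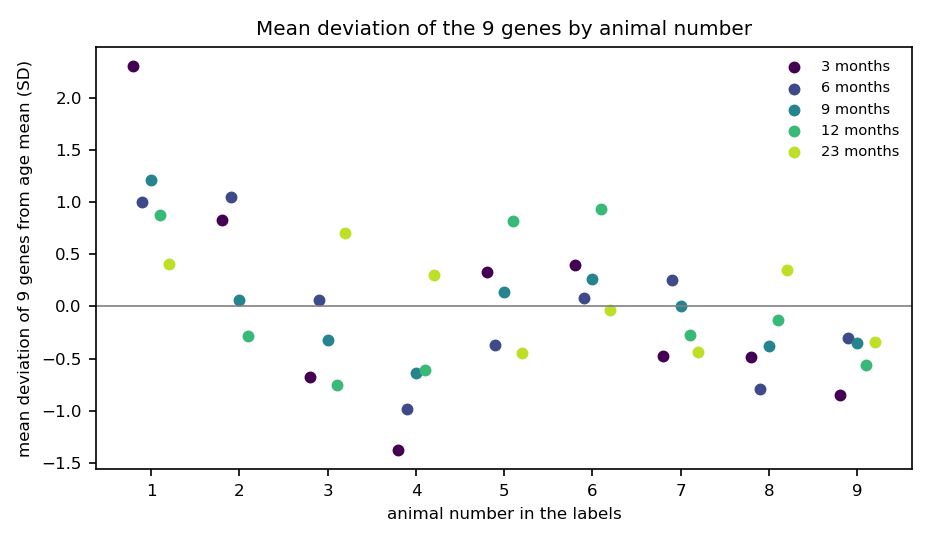
Mean deviation of the 9 genes from their age mean, in SD units, for the animals numbered 1 to 9 in the labels; each point is an animal and colours are ages. The animals numbered 1 lie above 0 at all 5 ages and those numbered 9 lie below 0.

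Without the 5 animals numbered 1, an exclusion chosen after the values were seen, 11 of 36 pairs passed and the median r was 0.33. All 28 pairs without *Gadd45g* kept an r above 0, with a median of 0.36, against 2 of the 8 pairs with it. *Arc* and *Nr4a1* were then at 0.74. Leaving out 3 months replicate 1 alone left 23 pairs. Within ages, the median r of the 36 pairs was 0.75 at 3 months, 0.48 at 6, 0.38 at 9, 0.38 at 12 and 0.17 at 23. Without the animal numbered 1 at each age it was 0.55, 0.37, 0.14, 0.29 and 0.17. The difference between ages in correlation was not tested.

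**Figure D5:**
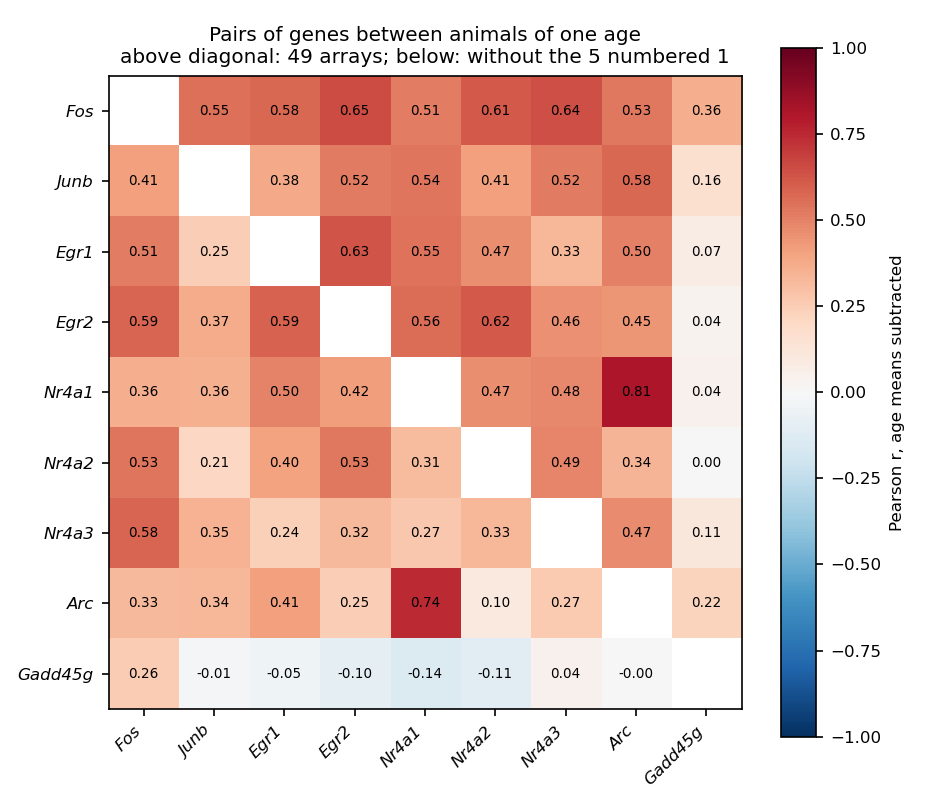
Pearson correlation between pairs of the 9 genes over animals, after subtraction of age means, for 49 animals (above the diagonal) and without the 5 animals numbered 1 (below it); the colour scale runs from -1 to 1. All values above the diagonal are positive, and the row and column of *Gadd45g* are the palest.

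Each gene's link to the others differed in strength. The correlation with the mean of the other 8 was 0.80 for *Fos*, 0.70 for *Nr4a1*, 0.70 for *Egr2*, 0.69 for *Arc*, 0.65 for *Junb*, 0.62 for *Nr4a3*, 0.62 for *Egr1*, 0.60 for *Nr4a2* and 0.17 for *Gadd45g*. These values share the animals and the arrays and are a description.

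Among the other 8084 genes tested, the one most like the mean of the 9 over the 49 animals was *Dusp1*, a phosphatase of MAP kinases and itself an early gene, with r = 0.77 and rho = 0.67. *Ier2*, an early-response gene, followed with r = 0.69 and rho = 0.66, and *Ddit4*, an inhibitor of mTOR signalling induced by stress, with 0.65 and 0.64. *Manf*, which encodes a factor of the endoplasmic reticulum, had 0.64 and 0.60. *Mrps25*, a mitochondrial ribosome gene, and *Mrfap1* had r of 0.61 and 0.61. Without the 2 farthest animals these 6 lay between 0.54 and 0.70, and the 5th to 95th percentile over all the other genes was -0.34 to 0.34.

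The closest genes outside the set differed by member. For *Fos* they were *Dusp1* (0.73) and *Ier2* (0.65), for *Arc* *Dusp1* (0.69) and *Stxbp5* (0.67), and for *Junb* *Ddit4* (0.64) and *Dusp1* (0.59). For *Egr1* they were *Nacad* (0.57) and *Manf* (0.55), and for *Egr2* *Manf* (0.61) and *Tdrd3* (0.57). For *Nr4a1* they were *Mrps25* (0.67) and *Usf1* (0.67), and for *Nr4a3* *Ddit4* (0.58) and *Hnrnpf* (0.56). *Nr4a2* was closest to the synaptic vesicle fusion gene *Snap25* (0.63) and to *Ppm1b* (0.63), and *Gadd45g* to the synaptotagmin gene *Syt4* (0.60) and to *Faim* (0.57). For *Gadd45g* the best of the other members, *Fos*, ranked 144th of all genes, whereas another member ranked within the first 5 for every other gene. These r are the largest of many and are given with no test.

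Markers of the cells in the sample bear on the tissue compared. *Prox1*, a marker of dentate granule cells, had signals of 283 to 1067 in 23-month animals and 274 to 1073 in 3-month animals, while *Tdo2*, of the same cells, stayed under 36 in both. The summed signal of the 3 dentate markers on the array ranged from 345 to 1345 at 23 months and from 356 to 1319 at 3 months, with medians of 754 and 721. *Prox1* within ages was inversely related to most members, with r = -0.48 for *Nr4a1*, -0.43 for *Egr2*, -0.41 for *Nr4a2* and 0.00088 for *Gadd45g*. The r with the mean of the 9 genes was -0.45 for *Prox1*, -0.26 for the dentate marker *Dsp* and -0.12 for the dim *Tdo2*. With *Prox1* as a covariate, added after the values were seen, *Nr4a2* and *Gadd45g* remained called at 23 against 3 months and *Egr2* passed as well (adjusted p = 0.0461). The CA1 markers *Wfs1*, *Pou3f1*, *Gpr161* and *Fibcd1* were all tested, and *Pou3f1* alone of them fell (-0.32, adjusted p = 0.0144). All 4 differences were below 0, with a median of -0.17, and the within-age r with the mean of the 9 genes was 0.38 for *Wfs1*, 0.39 for *Pou3f1*, 0.17 for *Gpr161* and 0.21 for *Fibcd1*. Their summed signal ranged from 6963 to 9982 at 23 months and from 8097 to 10565 at 3 months. Of 4 general neuron markers 3 were tested, and *Stmn2*, a gene of growing neurites, fell (-0.30, adjusted p = 0.0320). Any of 6 arrays ended that call, up to 0.0818 without 3 months replicate 6, as did leaving out the 5 arrays of high transthyretin (0.0689) or the 5 numbered 1 (0.133), while its other probe set was called lower (-0.21, adjusted p = 0.00518). *Snap25* (0.09) and *Rbfox3* (0.07) had differences above 0 and were not called. Within ages the r with the mean of the 9 genes was 0.064 for *Stmn2*, 0.55 for *Snap25* and -0.15 for *Rbfox3*. The summed signal of the 3 ranged from 17833 to 21263 at 23 months and from 17010.2 to 20907 at 3 months. The part of these neuronal markers in the results was not tested. Transthyretin was above 2000 on 5 arrays, 23 months replicate 11 and 3 months replicates 4, 6, 7 and 8, and the sum of the 6 choroid plexus markers ranged from 427 to 18202 at 23 months and from 422 to 12852 at 3 months. Without these 5 arrays *Nr4a2* was still called (-0.45, adjusted p = 0.0192). Of the microglial markers 4 of 6 rose at 23 months and of the astrocyte markers 2 of 4, and their part in the results above was not tested.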

How the data were processed

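The deposited values are microarray intensities computed by the authors with MAS5 (per the submitters' processing notes) and scaled to a target of 500 (per the series' design text). The 2% trimmed mean of each array was close to 500.1. Array dates are not used here, so batches were not tested. Of 15923 probe sets 57 were controls, 12783 had 1 gene symbol and 312 several, and 12748 were matched by Entrez ID to RefSeq names. Each gene was represented by its probe set of highest mean log2 signal. Signals under 16 were set to 16 before log2 (0.047% of tested values). R 4.3.3 with limma 3.58.1 (lmFit, eBayes with a variance trend) fitted all 49 arrays with a mean per age and no block. In simulated data of the 23 against 3 months comparison, with 8093 genes, 25, 45, 50 and 50 of 50 genes changed by 0.25, 0.5, 1 and 2 (log2) were recovered, with 4 false among 174 calls. Each gene was drawn independently from a normal distribution with its own SD, and the changed genes were picked at random. The rates therefore do not carry over to genes that vary together or as widely as *Fos*. All 1176 pairs of arrays differed (SD of the log2 difference at least 0.24). No per-sample column was left unused (0). Each array is a different animal, so the p-values refer to spread among animals, and precision is limited by how many arrays there are.

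The genes, lists and tests were chosen with earlier results of these data known. The genes named were the 9 with all their probe sets, the 6 other genes most correlated with their mean, the 2 most correlated with each, and in each list every gene past the test or otherwise the 2 of smallest p. Second probe sets were tested in a separate fit of 9541 probe sets. The other settings were the floor, the filter, normalization, array weights, a plain test without variance sharing, the replicate number as a block, a fit of 2 ages alone, arrays left out, and 2 added later (*Prox1* as a covariate; the 5 arrays numbered 1 left out). Behaviour scores are not analysed here.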

Additional observations from a re-analysis of the deposited data

Results flagged for a closer look

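Of 36 gene and age groups of 9 animals, 5 held an animal far above the others by Dixon's test at the 95% level. The test was run on linear signals, where high values stand farther apart than on the log2 scale used elsewhere. It was not repeated on log2 signals. The level means about 1 in 20 groups flagged by chance if signals are normal and groups independent. These groups share animals, so the 5 cannot be weighed against that rate. *Arc* at 3 months was 1596.3 in replicate 1, with the next animal at 951.4. *Nr4a1* at 9 months was 1228.6 in replicate 1 (next 937.3), and *Nr4a3* at 9 months was 1963.6 in the same animal (next 1481.9). *Egr1* at 12 months was 3763.1 in replicate 5 (next 2821.3). *Gadd45g* at 6 months was 138.9 in replicate 6 (next 107.5). Of the 5, 3 were signals of animals numbered 1.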

How the results depend on the processing

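Of 1050 values recomputed under single other settings, 988 kept their direction and side of the threshold, 42 lost a call, 6 gained one and 14 turned sign. *Nr4a2* at 23 against 3 months was called in all. The count of members called there was 1 with a signal filter of 200 (7 genes tested), with the replicate block, without the 5 arrays of high transthyretin and without the 5 arrays numbered 1, and 1 to 3 when single arrays were left out. *Gadd45g* was not called with the replicate block (adjusted p = 0.0549), in the fit of 2 ages alone (0.105) or without the arrays numbered 1 (0.130). Over 5 ages the count was 1 under median centring (*Nr4a2*, 0.0448) and with *Prox1* as a covariate (0.0326), and 0 to 1 over single arrays left out. The pairs that passed numbered 14 with the replicate block and 11 without the arrays numbered 1, and 23 to 29 over single arrays left out. Over all genes, 173 were called at 23 against 3 months without the arrays of high transthyretin, against 264.

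The log2 differences that turned sign are listed here, up to 0.1211 for *Arc* at 6 against 3 months with a single array left out. At 23 against 3 months *Nr4a1* was 0.02807 with array weights, 0.06079 with the replicate block, 0.001624 with *Prox1* as a covariate and 0.03097 without the arrays numbered 1. At 6 against 3 months it was -0.008128 under median centring, -0.01505 with array weights and -0.09562 without the arrays of high transthyretin, and *Arc* was 0.002726 under quantile normalization. *Egr1* at 12 against 3 months was -0.007626 without the arrays of high transthyretin. Without the arrays numbered 1, *Arc* was 0.07286, 0.005829 and 0.02041 at 6, 9 and 12 against 3 months, *Junb* was 0.01775 at 12 against 3 months and *Nr4a3* was 0.004293 at 23 against 12 months. Over single arrays left out, *Arc* ranged from -0.06328 to 0.1211, from -0.1355 to 0.04888 and from -0.1093 to 0.08172 at 6, 9 and 12 against 3 months, *Junb* from -0.104 to 0.03622 at 12 against 3 months, *Nr4a1* from -0.05604 to 0.07726 at 6 and from -0.07214 to 0.06115 at 23 against 3 months, and *Nr4a3* from -0.06929 to 0.02977 at 23 against 12 months. The causes were not tested.

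The replicate numbers were not taken to pair the animals. Over 86 pairs of animals of the same number and different age, the correlation of deviations across genes had a median of 0.0554 (-0.131 to 0.361), against -0.0097 for other numbers, and 11 of 44 animals correlated best with one of their own number. The rate of that count by chance was not computed, and whether animals of one number are linked was not tested. The block leaves out the 5 animals whose number occurs at no other age. Presence calls are not used here, and a signal near 100, as for *Gadd45g*, carries the least margin over background.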

Other observations

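Other activity-induced genes outside the set followed its mean to different degrees across animals. After subtraction of age means, the within-age r was 0.60 for *Egr4*, 0.60 for *Klf2*, 0.60 for *Zfp36*, 0.58 for *Dusp6*, 0.56 for *Homer1* and 0.42 for *Crem*. It was 0.23 for *Fosb*, 0.13 for *Egr3*, -0.21 for *Bdnf* and -0.32 for *Jun*, and *Penk*, an opioid peptide precursor gene, had -0.52. The genes of lowest r over all tested were *Mrpl16* (-0.67), *Tmed1* (-0.65) and *Mcee* (-0.65). These genes were chosen after their values were seen, and the r are given over 49 animals with no test. Of the astrocyte markers, *Gfap* had 0.23, *Aqp4* 0.15, *Slc1a3* -0.010 and *Slc1a2* -0.30. The ratio of the 3′ to the 5′ actin control probe sets, a sign of RNA quality, had 0.35 with the mean of the members, and that of GAPDH had -0.018. Its part in the correlations was not tested.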
